A study of Homo sapiens with 6 samples.

Results

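The 37 genes of the human mitochondrial genome were compared between macroH2A1-depleted and control fibroblasts. They were taken as every row of the deposited count files whose Ensembl identifier lies on the mitochondrial chromosome, and they make up 37 of the 57659 genes listed. The 37 comprise 13 protein-coding genes, 2 ribosomal RNA genes and 22 transfer RNA genes. RNA came from IMR90 cells, a line of human lung fibroblasts. The knockdown group held 3 libraries of cells carrying a short hairpin RNA against macroH2A1, a histone H2A variant with a large globular domain, and the control group held 3 libraries of cells carrying a hairpin against luciferase, an insect gene with no human counterpart, as the control. Both groups therefore carried a hairpin, and a single macroH2A1 hairpin stands for the depletion. The design text calls the libraries of a group biological replicates.

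Mitochondria keep a small circular genome of their own. It is transcribed from both strands into long precursors, which are cut at the transfer RNAs into separate messenger, ribosomal and transfer RNAs. The transcript conventionally named after the heavy strand carries both ribosomal RNAs and nearly all coding genes, and the light strand transcript carries MT-ND6 and the remaining transfer RNAs. The 13 proteins are subunits of respiratory complexes I, III and IV, which pump protons across the inner membrane, and of complex V, the ATP synthase that uses the proton gradient. All other subunits, and the enzymes that copy, read and process mitochondrial DNA and RNA, are encoded in the nucleus.

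Depth ranged between 3741087 and 5322851 gene counts in knockdown libraries and between 3744716 and 6421605 in control libraries. At these depths 3 counts correspond to 0.467 to 0.802 counts per 1000000 gene counts (CPM). The targeted gene, MACROH2A1 on chromosome 5, averaged 40.5 ± 2.49 CPM in knockdown libraries and 87.6 ± 3.60 CPM in control libraries (SD, n = 3 each), so that 46.3% of the control level remained. The summed level of 9 fibroblast markers lay between 11340 and 12940 CPM in knockdown libraries and between 7321 and 8582 CPM in control libraries. In the edgeR test used below, 5 of the 9 were called higher and 0 lower, beside 3.9% and 4.31% of all genes tested. The groups overlapped for VIM and THY1. The 16 markers of epithelium, endothelium, blood and muscle summed to at most 7.22 CPM for any of these types in any library, none passed the filter on low counts, and PECAM1, CD3E and CKM were at 0 in all 6 libraries. The part of the fibroblast marker difference in the results below was not tested. Knockdown replicate 1 stood apart in the mitochondrial transfer RNA MT-TV and was also well above the other libraries in MT-TL2 and MT-TP, and the transfer RNA sums and medians are given with and without that library.

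The mitochondrial share of gene counts was lower in the knockdown libraries. It was 6.64%, 6.36% and 5.78% in knockdown replicates 1, 2 and 3, against 8.85%, 8.18% and 7.83% in control replicates 1, 2 and 3. Counting error was small beside these gaps: the exact 95% binomial interval was 6.62% to 6.66% in the highest knockdown library and 7.80% to 7.86% in the lowest control library, and such intervals cover counting error only. The groups did not overlap, and their means were 6.26 ± 0.439% in knockdown and 8.29 ± 0.520% in control libraries (SD, n = 3 each), a ratio of 0.755. No test was run on this sum over chosen genes. In bulk RNA, fewer mitochondria or mitochondrial genomes per cell, less RNA from each, and a different make-up of the cells cannot be told apart. Nor can they be told apart from a difference in how much ribosomal RNA the depletion kit left in each library.

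Nearly all of that share was ribosomal RNA. MT-RNR1 and MT-RNR2 together took 84.3% to 94.5% of the mitochondrial counts in knockdown libraries and 91.6% to 95.04% in control libraries. Their own share of gene counts was 5.67 ± 0.251% in knockdown and 7.76 ± 0.624% in control libraries, with no overlap between the groups. The 13 protein-coding genes held only 1675 to 2499 counts in a knockdown library and 2575 to 4661 in a control library. Per 1000000 gene counts that was 469, 496 and 448 in knockdown libraries, against 726, 711 and 688 in control libraries. These groups did not overlap either, and the ratio of their means was 0.665. The 22 transfer RNAs had 0.996%, 0.363% and 0.271% of gene counts in knockdown libraries and 0.367%, 0.426% and 0.590% in control libraries. Knockdown replicate 1 was the highest of the 6 and knockdown replicate 3 the lowest, so these groups overlapped, and the ratio of their means was 1.18. That ratio depended on knockdown replicate 1. Without it, a value added after the data were seen, the ratio was 0.688, while the ribosomal RNAs stood at 0.736 and the coding genes at 0.666. Both remaining knockdown libraries then lay below every control library, the nearest at 0.363% against 0.367%. With MT-TV and MT-TH, the most counted transfer RNAs, left out as well, the ratio was 0.615 and the groups overlapped. Without any one of the other libraries the ratio for all 22 transfer RNAs was 1.07 to 1.47. Without the ribosomal RNAs the ratio of the mitochondrial shares was 1.11, and it too fell below 1, to 0.685, when knockdown replicate 1 was left out. Without MT-TV the ratio for the remaining 36 genes, also a value added after the data were seen, was 0.739.

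**Figure D1:**
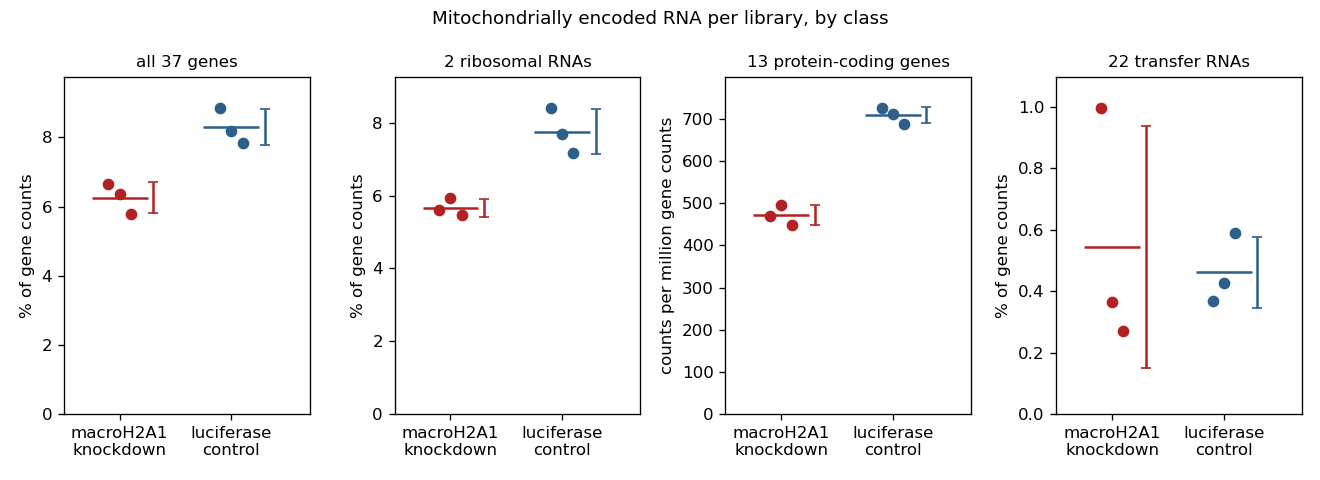
Share of gene counts taken by mitochondrially encoded genes in each library, for all 37 genes, the ribosomal RNAs, the protein-coding genes (in counts per 1000000) and the transfer RNAs. Points are libraries in the order of replicates 1 to 3, horizontal lines are means and vertical bars are SDs (n = 3 each). The knockdown points lie below all control points in the first 3 panels, while in the transfer RNA panel knockdown replicate 1 at 0.996% lies above the others.

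Other properties of the libraries moved with the groups. Reads without a unique alignment made up 65.7 ± 1.15% of the reads listed in knockdown files and 68.1 ± 0.619% in control files, and reads outside annotated genes made up 10.8 ± 0.388% in knockdown and 8.94 ± 0.555% in control files. Neither pair of groups overlapped, and the part of these differences in the mitochondrial share was not tested. As a share of nuclear protein-coding counts the ratio of the mitochondrial shares was 0.764, a value added after the data were seen, and as a share of all reads listed it was 0.719. How far the ribosomal RNA depletion kit removed mitochondrial ribosomal RNA from each library is not stated in the labels.

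Gene by gene, 33 of the 37 genes passed the filter on low counts and 4 transfer RNAs did not. edgeR's quasi-likelihood test, adjusted by Benjamini-Hochberg over 13445 genes with a threshold of 0.05, called 6 of the 33 lower in knockdown and 0 higher. Of all genes tested, 4.31% were called lower and 3.9% higher. The 6 were the transfer RNA MT-TE and the coding genes MT-ND5, MT-CYB, MT-ATP8, MT-CO3 and MT-ND4L, and 6 were also called when libraries were scaled by nuclear genes only (4.19% of all genes). The number called lower was 3 without knockdown replicate 1 (1.78% of all genes), 4 without knockdown replicate 2 (1.89%) and 4 without control replicate 3 (1.87%). It was 1 without knockdown replicate 3 (1.67%), control replicate 1 (1.42%) or control replicate 2 (1.45%). At an unadjusted p under 0.05, 11 of the 33 were lower and 1, MT-TV, was higher, where 12.5% of all genes tested were lower and 12% higher. The 12 genes whose groups did not overlap all lay lower in knockdown, where 15.9% of all genes tested did so, and they comprised 9 coding genes, both ribosomal RNAs and MT-TE. The median log2 fold change was -0.72 over the 13 coding genes and -0.36 over the ribosomal RNAs, beside 0.01 over all genes tested. Over the 18 transfer RNAs tested, the median was -0.09, and it was -0.39 without knockdown replicate 1, -0.33 without control replicate 1 and between 0.08 and 0.43 without any one of the other 4 libraries.

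**Figure D2:**
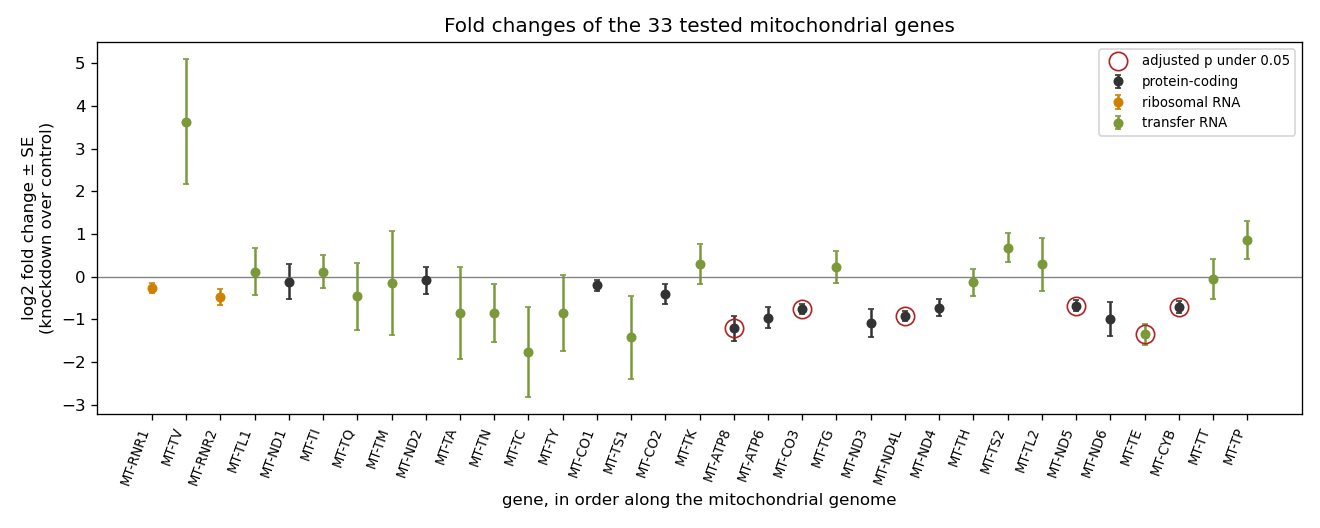
Log2 fold change of knockdown over control with its standard error for the 33 tested mitochondrial genes, in order along the genome, coloured by class. Rings mark the 6 genes with an edgeR adjusted p under 0.05, all between -1.35 and -0.68. The coding genes from MT-ATP8 onwards lie lower than the 4 before them, and MT-TV lies at 3.62 with a standard error of 1.46.

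Complex I, NADH dehydrogenase, takes electrons from NADH and has 7 subunits encoded here. Of these, 2 were called lower and 7 had a negative fold change, beside 4.31% and 49.2% of all genes tested. MT-ND4L, a small membrane subunit, had 25.3, 33.7 and 29.8 CPM in knockdown libraries, against 58.2, 58.1 and 50.9 CPM in control libraries. The lowest control library lay above the highest knockdown library, and the gene was 1.89-fold lower in knockdown (log2 fold change -0.92, SE 0.12, edgeR adjusted p = 0.00764). It was the only mitochondrial gene called in all 18 alternative fits, the 6 that left out 1 library included, with log2 fold changes between -1.02 and -0.80. Its sequence is shown because its end overlaps the next gene, MT-ND4, in another reading frame, and union counting assigns no read that touches both genes. It is given 5′ to 3′ from GENCODE 29 (build GRCh38, mitochondrial chromosome), with the 7 bases shared with MT-ND4 in capitals.
MT-ND4L: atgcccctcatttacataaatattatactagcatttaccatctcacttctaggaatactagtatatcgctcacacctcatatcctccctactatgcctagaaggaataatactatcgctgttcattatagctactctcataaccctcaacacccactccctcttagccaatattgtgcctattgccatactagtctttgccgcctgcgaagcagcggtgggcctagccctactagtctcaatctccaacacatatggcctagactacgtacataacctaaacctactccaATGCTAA

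MT-ND4, a large membrane subunit of the proton pump, had 72.2, 85.9 and 113 CPM in knockdown libraries, against 185, 126 and 136 CPM in control libraries. The groups did not overlap, but the gene did not pass (log2 fold change -0.72, SE 0.21, edgeR adjusted p = 0.0817). With MT-ND4L on the same messenger RNA, the ratio of MT-ND4L to MT-ND4 counts was 0.335 ± 0.0659 in knockdown and 0.383 ± 0.0737 in control libraries (SD, n = 3 each), with overlapping groups. MT-ND5, another large subunit of the proton-pumping arm, had 63.2, 49.6 and 47.3 CPM in knockdown libraries, against 77.5, 92.3 and 86.3 CPM in control libraries. Every knockdown value lay below every control value, and MT-ND5 was 1.60-fold lower in knockdown (log2 fold change -0.68, SE 0.13, edgeR adjusted p = 0.0263). Its call was lost in 5 of the 6 fits without a library, with adjusted p from 0.0538 to 0.0872, and held only without knockdown replicate 1 (adjusted p = 0.0182).

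MT-ND3, a small subunit, had 3.73, 4.53 and 3.19 CPM in knockdown libraries, against 6.43, 12.02 and 6.29 CPM in control libraries, where control replicate 2 was the highest (log2 fold change -1.09, SE 0.33, edgeR adjusted p = 0.0938). MT-ND6, the coding gene of the light strand transcript, had only 28 counts over the knockdown libraries and 60 over the control libraries, at 1.99 ± 1.12 and 4.08 ± 0.677 CPM (log2 fold change -0.99, SE 0.40, edgeR adjusted p = 0.190). Neither gene's groups overlapped and neither passed. MT-ND6 lies opposite the heavy strand transcript, and the strand setting of the counting is not stated, so its reads and reads from the opposite strand cannot be told apart.

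MT-ND1 and MT-ND2, membrane subunits whose genes come first among the coding genes, differed in pattern. MT-ND1 had 114, 44.7 and 35.1 CPM in knockdown libraries, against 78.5, 63.0 and 68.9 CPM in control libraries. Knockdown replicate 1 was the highest of all 6 libraries and the other two knockdown libraries were the lowest, so the groups overlapped (log2 fold change -0.12, SE 0.42, edgeR adjusted p = 0.902). Without knockdown replicate 1 the log2 fold change was -0.81 and the gene was called (edgeR adjusted p = 0.0481). MT-ND2 had 12.2, 5.61 and 9.03 CPM in knockdown libraries, against 9.10, 12.02 and 7.34 CPM in control libraries, so the groups overlapped (log2 fold change -0.08, SE 0.32, edgeR adjusted p = 0.909). Without 1 library, the fold change of MT-ND1 or MT-ND2 turned positive in 3 of the 6 fits, up to 0.18, and neither was then called.

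Complex III has a single subunit encoded here, MT-CYB, the cytochrome b that carries electrons from ubiquinol. It had 28.3, 42.5 and 35.9 CPM in knockdown libraries, against 57.0, 55.3 and 61.9 CPM in control libraries. The groups stood apart, and MT-CYB was 1.63-fold lower in knockdown (log2 fold change -0.71, SE 0.15, edgeR adjusted p = 0.0350). The call was lost in 5 of the 6 fits without a library, with adjusted p from 0.0543 to 0.105, and held only without knockdown replicate 2 (adjusted p = 0.0291).

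In complex IV, cytochrome c oxidase, 1 of 3 mitochondrial subunits was called lower, beside 4.31% of all genes tested. MT-CO3, a core subunit without redox centres, had 71.6, 86.1 and 69.6 CPM in knockdown libraries, against 129, 139 and 113 CPM in control libraries. All knockdown values lay below all control values, and MT-CO3 was 1.68-fold lower in knockdown (log2 fold change -0.75, SE 0.12, edgeR adjusted p = 0.0132). Leaving out knockdown replicate 1, knockdown replicate 3, control replicate 1 or control replicate 2 took its adjusted p to between 0.0543 and 0.0552. MT-CO1, the catalytic subunit with haem and copper, had 75.1, 87.6 and 68.8 CPM in knockdown libraries, against 75.5, 95.5 and 95.4 CPM in control libraries, and control replicate 1 lay among the knockdown libraries (log2 fold change -0.20, SE 0.13, edgeR adjusted p = 0.402). MT-CO2, the subunit that receives electrons from cytochrome c, had 13.1, 25.02 and 21.8 CPM in knockdown libraries, against 24.6, 30.2 and 24.1 CPM in control libraries. Knockdown replicate 2 exceeded 2 control libraries, and MT-CO2 did not pass (log2 fold change -0.40, SE 0.23, edgeR adjusted p = 0.349).

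Within complex IV the ratio of MT-CO3 to MT-CO1 counts differed between the groups. MT-CO3 had 0.953, 0.983 and 1.01 counts per MT-CO1 count in knockdown libraries, against 1.71, 1.46 and 1.19 in control libraries. The groups did not overlap, although the control libraries were spread more widely, at 1.45 ± 0.259 beside 0.982 ± 0.0293 in knockdown libraries (SD, n = 3 each). Ratios of this kind were chosen after the values were seen and were not tested. Reads shared with a nuclear copy are missing from the counts of both genes.

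In complex V, 1 of 2 mitochondrial subunits was called lower, beside 4.31% of all genes tested. MT-ATP8, a short subunit of the membrane part of ATP synthase, had 5.49, 6.47 and 4.52 CPM in knockdown libraries, against 15.4, 14.5 and 8.13 CPM in control libraries. Control replicate 3 was the lowest control library but still exceeded every knockdown library, and the gene was 2.31-fold lower in knockdown (log2 fold change -1.21, SE 0.28, edgeR adjusted p = 0.0485). That call stood in 7 of 17 alternative fits, and without a library the adjusted p was 0.0956 to 0.151 except without control replicate 3, where it was 0.0238. MT-ATP6, the subunit of the proton channel, had 4.12, 7.12 and 6.11 CPM in knockdown libraries, against 11.5, 9.07 and 13.1 CPM in control libraries. These groups did not overlap, and MT-ATP6 did not pass (log2 fold change -0.96, SE 0.25, edgeR adjusted p = 0.0658). The sequence of MT-ATP8 is shown because the last 46 of its 207 bases, in capitals, are also the first bases of MT-ATP6, and reads that touch both genes are assigned to neither by union counting. It is given 5′ to 3′ from GENCODE 29 (build GRCh38, mitochondrial chromosome).
MT-ATP8: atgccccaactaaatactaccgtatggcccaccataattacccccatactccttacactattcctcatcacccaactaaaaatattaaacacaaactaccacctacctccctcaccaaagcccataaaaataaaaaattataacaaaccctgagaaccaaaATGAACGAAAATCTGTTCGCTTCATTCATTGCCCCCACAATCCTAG

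**Figure D3:**
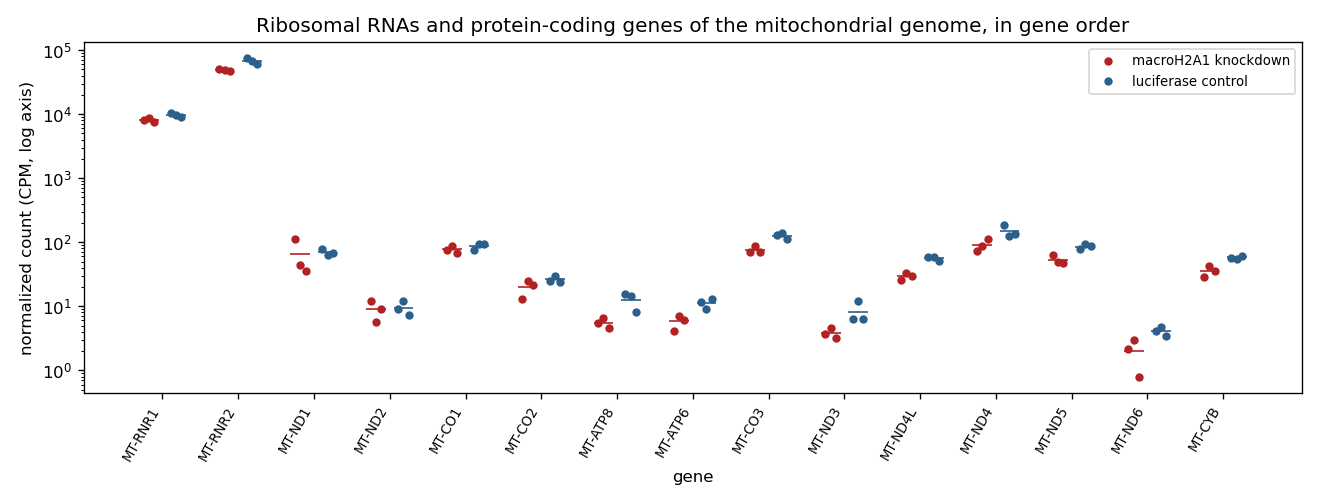
Normalized count (CPM, log axis) of the 2 ribosomal RNA and 13 protein-coding mitochondrial genes in each library, in gene order. Points are libraries, knockdown left of control, and lines are means. Knockdown points lie below all control points for MT-RNR1, MT-RNR2 and every coding gene from MT-ATP8 onwards, while the groups overlap for MT-ND1, MT-ND2, MT-CO1 and MT-CO2.

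Along the genome, fold changes were nearer to 0 at the start of the coding region than after it. The 4 coding genes that come first, MT-ND1, MT-ND2, MT-CO1 and MT-CO2, had log2 fold changes of -0.40 to -0.08, none was called, and all 4 had overlapping groups. The other 9, from MT-ATP8 to MT-CYB, had log2 fold changes of -1.21 to -0.68, 5 were called, and none had overlapping groups. Of all genes tested, 4.31% were called lower, and 15.9% lay lower in knockdown with no overlap between the groups. The split into the first 4 and the other 9 coding genes was drawn after the values were seen and carries no test. Without knockdown replicate 1 it was no longer clean, with -0.81 to -0.16 in the first 4 and -1.20 to -0.56 in the other 9.

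Levels within the coding class also ranged widely. Per 1000 bases of gene length, MT-ND4L was the highest coding gene at 99.7 ± 17.5 CPM in knockdown and 188 ± 11.8 CPM in control libraries, followed by MT-CO3 at 96.6 ± 14.2 CPM in knockdown and 162 ± 15.1 CPM in control libraries. The first 2 did not differ beyond their spread in knockdown libraries. MT-ND6 was the lowest, at 3.79 ± 2.20 CPM per 1000 bases in knockdown and 7.79 ± 1.22 in control libraries, with MT-ND2 next at 8.48 ± 2.83 in knockdown and 9.12 ± 2.20 in control libraries (SD, n = 3 each), and these 2 did not differ beyond their spread in control libraries. Reads shared with a nuclear copy are not counted, which lowers such levels by different amounts in different genes.

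The ribosomal RNAs form the core of the mitochondrial ribosome, MT-RNR1 in the small and MT-RNR2 in the large subunit. MT-RNR2 had 50239, 49234 and 46828 CPM in knockdown libraries, against 74508, 67328 and 61316 CPM in control libraries. The groups did not overlap, yet the gene did not pass edgeR's test (log2 fold change -0.47, SE 0.18, adjusted p = 0.160). It was called with DESeq2 (adjusted p = 0.000718), limma-voom (0.0122), a robust prior (0.00185) and all genes with at least 1 count (0.000114), and its adjusted p was 0.0585 to 0.330 in the other alternatives. MT-RNR1 had 8201, 8591 and 7483 CPM in knockdown libraries, against 10266, 9633 and 9085 CPM in control libraries. These groups were also separate, and MT-RNR1 did not pass (log2 fold change -0.26, SE 0.12, edgeR adjusted p = 0.251).

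The 2 ribosomal RNAs did not keep a fixed ratio. There were 6.13, 5.73 and 6.26 MT-RNR2 counts per MT-RNR1 count in knockdown libraries, against 7.26, 6.99 and 6.75 in control libraries. The highest knockdown ratio lay below the lowest control ratio. Coding counts per 1000 ribosomal RNA counts were 8.31 ± 0.0997 in knockdown and 9.16 ± 0.488 in control libraries (SD, n = 3 each). These groups did not overlap either, but the highest knockdown library, at 8.39, lay close to the lowest control library, at 8.63. Both ratios were chosen after the values were seen and were not tested. Both rest on the ribosomal RNA that the depletion kit left in each library, and the part of the kit in them was not tested.

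The transfer RNAs carry the amino acids of mitochondrial translation and mark the cutting sites of the precursors. They are shorter than the sheared cDNA of these libraries, and reads over them can come from a precursor as well as from a mature transfer RNA. MT-TE, the transfer RNA for glutamate on the light strand transcript, was the single one called. It had 3.92, 5.82 and 4.25 CPM in knockdown libraries, against 13.2, 13.4 and 8.91 CPM in control libraries. The groups did not overlap, and MT-TE was 2.54-fold lower in knockdown (log2 fold change -1.35, SE 0.25, edgeR adjusted p = 0.0218). MT-TE lies opposite the heavy strand transcript, and since the strand setting of the counting is not stated, its reads and those of the heavy strand precursor cannot be told apart, nor can those of the other light strand transfer RNAs. The call held in 12 of 17 alternative fits, and among the fits without a library only without knockdown replicate 2 or without control replicate 3.

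The sequences of MT-TE and of the most counted transfer RNAs, MT-TH for histidine and MT-TV for valine, are given 5′ to 3′ on their own strand from GENCODE 29 (build GRCh38, mitochondrial chromosome), with the anticodon in capitals. None shares a stretch of 50 bases with an annotated nuclear copy, and nuclear sequence outside annotated transcripts was not searched.
MT-TE: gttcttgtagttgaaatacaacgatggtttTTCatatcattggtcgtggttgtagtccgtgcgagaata
MT-TH: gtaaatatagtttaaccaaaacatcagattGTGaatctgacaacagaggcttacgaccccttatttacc
MT-TV: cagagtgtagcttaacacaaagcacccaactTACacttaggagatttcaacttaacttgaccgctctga

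MT-TV lies between the ribosomal RNA genes, and in human cells its product is also built into the mitochondrial ribosome. It had 4343, 120 and 94.3 CPM in knockdown libraries, against 111, 113 and 145 CPM in control libraries. Knockdown replicate 1, with 22136 counts, stood 36.8-fold above the median of the other 5 libraries in unscaled CPM, and of the other knockdown libraries replicate 2 lay within the control range and replicate 3 below it. MT-TV did not pass (log2 fold change 3.62, SE 1.46, edgeR adjusted p = 0.188), and without knockdown replicate 1 its log2 fold change was -0.19 (edgeR adjusted p = 0.564). In that library MT-TV made up 41.7% of the transfer RNA counts and 6.26% of all mitochondrial counts. The adjoining MT-RNR1 had 8201 CPM in that library, beside 8591 and 7483 CPM in the other knockdown libraries, and MT-RNR2 had 50239 CPM, beside 49234 and 46828 CPM.

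MT-TH dominated the class otherwise, with 83.0% to 84.1% of the transfer RNA counts in knockdown replicates 2 and 3, 49.96% in knockdown replicate 1 and 78.3% to 87.9% in control libraries. It had 5197, 2970 and 2239 CPM in knockdown libraries, against 3249, 3341 and 4809 CPM in control libraries. The groups overlapped, and MT-TH did not pass (log2 fold change -0.13, SE 0.32, edgeR adjusted p = 0.851).

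By strand of the precursor, the fold changes of the transfer RNAs depended on single libraries. Over all genes tested with all libraries, 49.2% had a negative fold change, 4.31% were called lower and 3.9% higher. Of the 10 tested on the heavy strand transcript, 3 had a negative fold change and 0 were called, with a median of 0.17. Beside MT-TV and MT-TH these were MT-TL1, MT-TI, MT-TM, MT-TK, MT-TG, MT-TS2, MT-TL2 and MT-TT, between -0.15 for MT-TM and 0.68 for MT-TS2. Without knockdown replicate 1, 7 of the 10 were negative and the median was -0.29. Without control replicate 1, 6 were negative with a median of -0.15, and without knockdown replicate 3 or control replicate 3, 0 were. Of the 8 on the light strand transcript, all tested, 7 had a negative fold change and only MT-TE was called, with a median of -0.85. Without control replicate 2, 4 of the 8 were negative and the median was -0.12, with MT-TA, MT-TC, MT-TY and MT-TP positive, and without any one of the other libraries 6 or 7 were negative, with medians of -1.52 to -0.57. The difference between the strands was not tested. With all libraries, MT-TC had the lowest value at -1.76 (SE 1.05), followed by MT-TS1 at -1.42, while MT-TA, MT-TN and MT-TY lay at -0.85 and MT-TQ at -0.46. MT-TP, the transfer RNA for proline, went the other way at 0.86 (SE 0.45, edgeR adjusted p = 0.297).

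Single libraries held many of the extreme values within the class. Of the 14 heavy strand transfer RNAs, 7 were highest in knockdown replicate 1 and 5 in control replicate 3. Of the 8 light strand ones, 6 were highest in control replicate 2 and 5 were lowest in knockdown replicate 1. MT-TC, for example, had 148 CPM in control replicate 2, beside 7.65 to 34.5 CPM in knockdown libraries and 10.2 and 19.6 CPM in the other control libraries. MT-TM, the transfer RNA for methionine, had 280, 9.49 and 65.9 CPM in knockdown libraries, against 20.4, 93.4 and 284 CPM in control libraries, a range shared by both groups. The 4 transfer RNAs that did not pass the filter held few counts: MT-TF had 27, 1 and 20 in knockdown and 2, 6 and 2 in control libraries, MT-TD had 52 in all libraries together, MT-TW 27 and MT-TR 2.

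**Figure D4:**
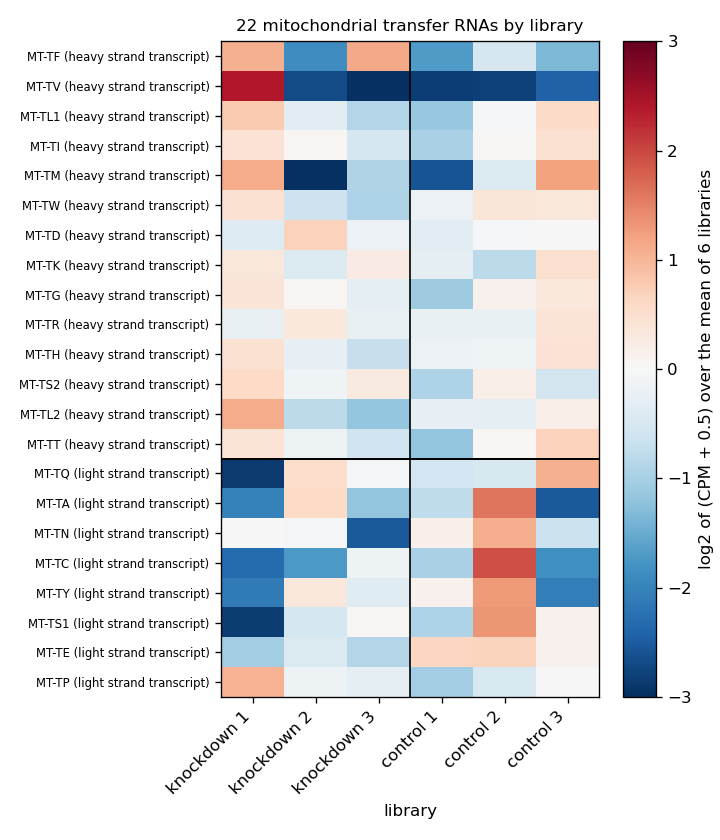
Level of each of the 22 mitochondrial transfer RNAs in each library, as log2 of (CPM + 0.5) relative to the gene's mean over 6 libraries, with heavy strand transfer RNAs above the horizontal line and light strand ones below it. Red is above the gene's mean and blue below. MT-TV is high only in knockdown replicate 1, 6 of 8 light strand transfer RNAs are highest in control replicate 2, and MT-TE is lower in each knockdown library than in each control library.

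Copies of mitochondrial genes in the nuclear genome bear on these counts, because reads that align to both places are not counted. The sequence comparison was chosen after the fold changes were seen. In GENCODE 29, the share of 50-base windows of a gene that also occur, base for base, in an annotated nuclear copy was 49.5% for MT-CO1, 46.7% for MT-ATP6 and 43.6% for MT-ND2. It was 30.6% for MT-CO3, 28.98% for MT-CO2, 22.1% for MT-ND1, 17.9% for MT-ND6 and 14.04% for MT-RNR2. Windows shared with a copy made up 8.23% of MT-ATP8, 4.76% of MT-ND5, 3.54% of MT-ND4 and 1.19% of MT-CYB. MT-ND3, MT-ND4L, MT-RNR1 and the transfer RNAs had none, the transfer RNAs with only 10 to 26 windows each. Only annotated transcripts were searched, so copies elsewhere in the nuclear genome would be missed, and genes with none may still lose reads to them. Of the 5 coding genes called lower, beside 4.31% of all genes tested, 4 were at 8.23% or less and MT-CO3 was at 30.6%. The 8.23% is the value of MT-ATP8, itself called, so this division was drawn from the calls. The other coding genes at 8.23% or less, MT-ND3 and MT-ND4, were not called. MT-ATP6, at 46.7%, was not called but had a log2 fold change of -0.96. The part of nuclear copies in the calls was not tested. The start of MT-CO1 and of MTCO1P12, a copy on chromosome 1, shows how alike such pairs are: their first 120 bases, 5′ to 3′ from GENCODE 29 (build GRCh38), differ at 1 base, printed in capitals.
MT-CO1: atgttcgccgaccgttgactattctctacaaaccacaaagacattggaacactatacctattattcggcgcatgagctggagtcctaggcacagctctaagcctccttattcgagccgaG
MTCO1P12: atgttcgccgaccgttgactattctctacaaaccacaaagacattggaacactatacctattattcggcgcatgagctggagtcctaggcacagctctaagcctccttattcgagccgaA

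**Figure D5:**
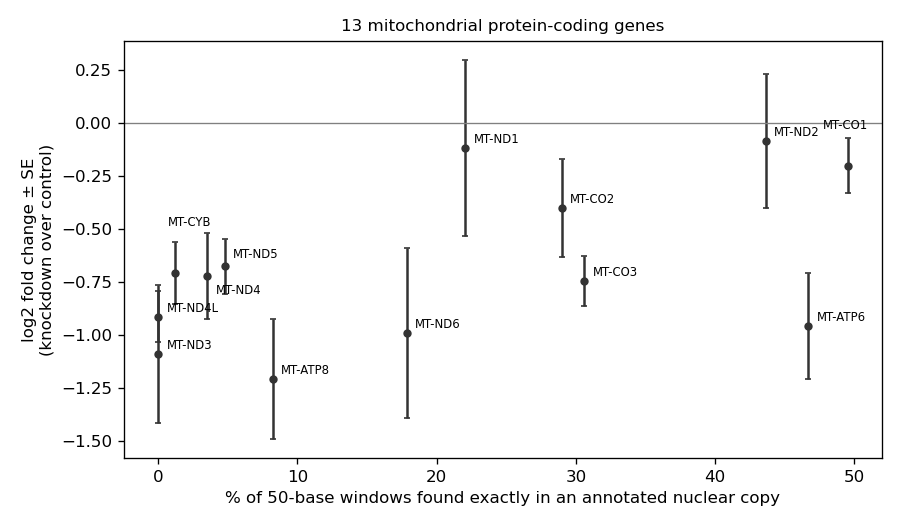
Log2 fold change of knockdown over control, with its standard error, of the 13 mitochondrial coding genes against the share of their 50-base windows found exactly in an annotated nuclear copy. MT-ND3 and MT-ND4L, with none, lie at -1.09 and -0.92, and of the 3 genes above 40%, MT-CO1 lies at -0.20, MT-ND2 at -0.08 and MT-ATP6 at -0.96.

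The nuclear copies themselves were counted as separate genes. Of 379 annotated copies, 20 passed the filter, 2 were called lower and 0 higher, beside 4.31% of all genes tested called lower and 3.9% higher. Together they held 2922 ± 392 counts per 1000000 in knockdown and 3493 ± 546 in control libraries (SD, n = 3 each), with overlapping groups, and 94.0% of their counts fell on 6 genes. Of these, MTRNR2L3 on chromosome 20, a copy of MT-RNR2, was called, at 394, 368 and 385 CPM in knockdown libraries, against 566, 568 and 481 CPM in control libraries (log2 fold change -0.49, SE 0.09, edgeR adjusted p = 0.0227). The others had log2 fold changes of -0.44 for MTRNR2L1, -0.39 for MTRNR2L10, -0.21 for MTRNR2L8, 0.07 for MTCO1P12 and 0.24 for MTRNR2L9, and none passed. The second copy called was MTND6P4 on chromosome 5, with 4.60 ± 0.775 CPM in knockdown and 8.60 ± 0.798 CPM in control libraries (log2 fold change -0.89, SE 0.20, edgeR adjusted p = 0.0423). Whether reads counted for a copy came from the nuclear or the mitochondrial genome was not tested.

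The nuclear genes that partner the mitochondrial ones were counted in the same fit, where 4.31% of all genes tested were called lower and 3.9% higher. Of 73 nuclear subunits of complexes I, III, IV and V that were tested, 1 was called lower and 0 higher, with a median log2 fold change of -0.10. The one called was NDUFV3, an accessory subunit of complex I, with 23.5, 20.7 and 19.4 CPM in knockdown libraries, against 27.8, 30.2 and 29.9 CPM in control libraries (log2 fold change -0.46, SE 0.10, edgeR adjusted p = 0.0382). Negative fold changes made up 61.6% of the 73, beside 49.2% of all genes tested. By complex, this share was 50% in complex I, 66.7% in complex III, 63.6% in complex IV and 82.4% in complex V. The median was -0.21 over the nuclear subunits of complex V, of which 0 were called. Of the 4 subunits of complex II, which has no mitochondrially encoded member, none was called, 1 was negative and the median was 0.02. The difference between the mitochondrial and the nuclear subunits was not tested.

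Among factors that copy and read mitochondrial DNA, 1 of 33 tested (3.03%) was called lower, beside 4.31% of all genes tested. POLRMT, the mitochondrial RNA polymerase, had 7.85, 10.4 and 6.91 CPM in knockdown libraries, against 6.59, 7.71 and 7.60 CPM in control libraries (log2 fold change 0.21, SE 0.21, edgeR adjusted p = 0.593). TFAM, which packages mitochondrial DNA and starts transcription, averaged 20.2 ± 3.02 CPM in knockdown and 25.5 ± 5.39 CPM in control libraries (log2 fold change -0.34, SE 0.18, edgeR adjusted p = 0.294). Both pairs of groups overlapped and neither gene passed. Nor did TFB2M, the initiation factor, at -0.04, POLG, the DNA polymerase, at 0.23, or TWNK, the helicase, at -0.32. The gene called was RRM2B, a subunit of the ribonucleotide reductase that supplies precursors for mitochondrial DNA and a known target of p53, with 49.7 ± 6.45 CPM in knockdown and 79.1 ± 2.02 CPM in control libraries (log2 fold change -0.67, SE 0.10, edgeR adjusted p = 0.0125).

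Of 39 genes of mitochondrial RNA processing, modification and decay, 1 was called lower and 1 higher, beside 4.31% and 3.9% of all genes tested. NSUN2, an RNA methyltransferase that modifies nuclear and mitochondrial transfer RNAs, was 1.52-fold lower in knockdown (log2 fold change -0.60, SE 0.07, edgeR adjusted p = 0.00472). FASTKD1, a mitochondrial RNA-binding protein, was 1.43-fold higher, with 18.8 ± 1.67 CPM in knockdown and 13.1 ± 0.460 CPM in control libraries (log2 fold change 0.52, SE 0.12, edgeR adjusted p = 0.0424), a call lost without any one of the 6 libraries. LRPPRC and SLIRP, which together stabilise mitochondrial messenger RNAs, had log2 fold changes of -0.21 and -0.23 and did not pass. PPARGC1A, a coactivator of mitochondrial biogenesis, had 3.92, 4.10 and 2.66 CPM in knockdown libraries, against 1.098, 2.72 and 0.786 CPM in control libraries. Control replicate 2 lay within the knockdown range, and PPARGC1A did not pass (log2 fold change 1.23, SE 0.45, edgeR adjusted p = 0.149).

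In the remaining lists, 0 of 23 mitochondrial tRNA synthetases, 0 of 14 regulators of mitochondrial biogenesis and 1 of 75 mitochondrial ribosomal proteins were called, the last being MRPL52 at -0.61 (SE 0.13, edgeR adjusted p = 0.0365). Of 33 genes of import and membrane dynamics, 3 were called lower: TOMM20, a receptor of the outer membrane import channel, at -0.60, HSPD1, the matrix chaperonin, at -0.59, and BNIP3, a receptor for the removal of mitochondria that responds to low oxygen, at -0.58. Over all nuclear lists, 7 of 294 genes tested (2.38%) were called lower and 1 higher, with a median of -0.08, beside 4.31% lower and 3.9% higher over all genes tested.

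In the authors' deposited table, made with another test on the same 6 libraries, 12 of the 13 coding genes are listed. All 12 have a negative log2 ratio there, the sign of their fold changes here. Because the libraries are the same, that shared sign is not an independent result. In the authors' deposited table, 6 of the 12 have an adjusted p under 0.05, namely MT-ATP6, MT-CO3, MT-CYB, MT-ND4, MT-ND4L and MT-ND5, beside 12% of its 11638 genes in either direction. MT-ND4L again has the lowest p of the 12, with a ratio of 0.535 in the authors' deposited table.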

How the data were processed

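RNA-seq of 3 knockdown and 3 control libraries was used, grouped by the sample titles. Per the labels' protocols, a kit removed ribosomal RNA, the dUTP-marked second strand was digested before amplification, and all libraries shared a sequencing lane. The deposited values are unnormalized read counts for each Ensembl gene, made with CASAVA 1.7, GSNAP and HTSeq on hg19 per the submitters' processing notes, in union mode by the file names. Which HTSeq version, annotation and strandedness were used is not given in the sources used here. Reads with several alignments or touching several genes are not counted, which lowers counts of genes with nuclear copies or overlaps. The authors' deposited table, from DESeq 1.10.1 per the same notes, holds mean signal (counts over size factors), fold ratio, its log2, and p-values, per the file headers. Lines naming no gene, 11.9% to 13.7% of reads being left for genes, stayed out of library sizes.

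The 57659 genes were filtered with filterByExpr (minimum count 10), scaled with TMM and tested with edgeR 4.0.16 (glmQLFit, glmQLFTest; R 4.3.3) with group as the only term, adjusted by Benjamini-Hochberg over 13445 genes at 0.05. The standard error is the size of the log2 fold change over the square root of F. CPM is over TMM-scaled gene counts, whereas shares use unscaled gene counts. DESeq2 1.42.0, limma-voom (limma 3.58.1), a robust prior, 5 scalings, 2 filters, the genes of the authors' table, a replicate block and leaving out each library were alternatives. The steps were tested on simulated counts. Symbols, classes, gene lengths and sequences came from GENCODE 29 (GRCh38), another build than the files', so no coordinates are given. Of the gene list entries, NDUFA7, FASTKD4, MRM1, MRPL45, MRPS21 and TIMM23 had no match. All coding, ribosomal and tested transfer RNA genes are named, as are called list members, 8 nuclear regulators and the 6 most counted copies. Members and lists were chosen with earlier results of these data known.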

Additional observations from a re-analysis of the deposited data

How the results depend on the processing

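Against 6 mitochondrial genes called lower, the counts were 10 with all genes of at least 1 count (1.75% of all genes called lower, against 4.31% as reported), 10 with a robust prior (6.22%), and 1 to 4 when 1 library was left out (1.42% to 1.89%). Against 0 called higher, there was 1 (MT-TV) with all genes of at least 1 count (2.18% of all genes called higher, against 3.9% as reported), and 0 to 1 without a library (MT-TF, without knockdown replicate 2, where 2.08% of all genes were). The nuclear lists, with 7 lower, gave 13 on the genes of the authors' table (8.99% of all genes), 12 with a robust prior and 3 to 6 without a library. Their 1 higher gene became 2 with upper-quartile scaling, nuclear scaling, limma-voom or a robust prior (3.96% to 5.3% of all genes), 6 on the authors' genes (8.71%), and 0 with total counts only, with filters of at least 1 or at least 20 counts, with DESeq2 (2.18% to 4.01%) and without any library. Replicate numbers did not pair the libraries (correlations of deviations -0.0255, -0.0181 and -0.173 for the same number). With the number as a replicate block, 2 mitochondrial genes (MT-CO3 and MT-ND4L) and 3 nuclear ones were called lower, and 0 nuclear ones higher (1.38% and 1.71% of all genes).

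The ratio of mitochondrial shares, 0.755, was 0.719 to 0.764 under the other denominators and 0.733 to 0.785 without a library. It was 0.665 for the coding genes, and it reversed to 1.11 without the ribosomal RNAs, which became 0.685 when knockdown replicate 1 was left out as well and 1.02 to 1.37 without any one of the other libraries. The transfer RNA ratio, 1.18, was 0.688 without knockdown replicate 1 and 1.07 to 1.47 without another library. Among 572 alternative fold changes of single mitochondrial genes, 27 in 14 genes changed sign, none called on either side. Of these, 24 came from leaving out a library and 3 from a replicate block or limma-voom (MT-TT and MT-TL2). Counting these apart from reversals of called genes was decided after they were seen. Depth limits the low genes: MT-ND6 had 28 counts over the knockdown libraries and 60 over the control libraries, and its ratio of 0.502 has an exact 95% interval of 0.308 to 0.798 for counting error alone. The causes of changes with a setting were not tested.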
